A study of Mus musculus with 18 samples.

Results

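The enolase genes of the mouse lens were examined through 4 symbols of the count table, Eno1, Eno1b, Eno2 and Eno3, out of 40800 listed genes. Eno1b was chosen by its higher counts in both Cryab-R120G genotypes than in their wild type, and Eno1, Eno2 and Eno3 were taken as the other enolases to set beside it. RNA of whole lenses, several of which were pooled into each library, was sequenced as poly-A libraries of single 50-base reads in 6 groups of 3 libraries from C57BL/6J mice. The αA-crystallin R49C knock-in line gave lenses at 2 days of age that were wild-type (Cryaa-WT), heterozygous (Cryaa-R49C-het) or homozygous (Cryaa-R49C-homo). The αB-crystallin R120G knock-in line gave the same 3 genotypes at 14 days of age (Cryab-WT, then Cryab-R120G-het and last Cryab-R120G-homo). Each knock-in changes the crystallin gene in every cell of the animal, and line and age changed together, so that a difference between the lines cannot be told apart from a difference between the ages.

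Enolase converts 2-phosphoglycerate to phosphoenolpyruvate, the step before pyruvate kinase in glycolysis, and works as a dimer. The α subunit from Eno1 is found in most cells, the γ subunit from Eno2 marks neurons, and the β subunit from Eno3 marks muscle. The mature lens has no blood vessels, its fibres lose their mitochondria, and glycolysis supplies much of its energy; in some vertebrates α-enolase is itself abundant in the lens, as τ-crystallin. Eno1b is annotated as a retrotransposed copy of Eno1, that is, a gene made when a spliced Eno1 transcript was copied back into the genome.

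Eno1, Eno2 and Eno3 stand well apart in sequence. In the GRCm38 annotation Eno1 lies at chr4:150236721-150248879 on the plus strand, Eno2 at chr6:124760053-124769673 on the minus strand and Eno3 at chr11:70657202-70662513 on the plus strand, and the main transcript of each has 12 exons and 1302 coding bases without the stop codon. Over these bases Eno1 was 75.1% identical to Eno2 and 76.7% identical to Eno3, and Eno2 and Eno3 were 76.7% identical to each other. A stretch of exon 8, coding positions 721 to 825, is printed from the GRCm38 genome to show how densely the differences lie along the length of a read. Capitals mark the 24 bases in each that differ from Eno1. The stretches lie at chr6:124763767-124763871 (minus strand) and chr11:70661050-70661154 (plus strand) and are written 5′ to 3′ along the coding strand.
Eno2: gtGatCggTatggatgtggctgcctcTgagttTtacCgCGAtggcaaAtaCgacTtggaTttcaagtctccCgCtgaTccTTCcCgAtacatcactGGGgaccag
Eno3: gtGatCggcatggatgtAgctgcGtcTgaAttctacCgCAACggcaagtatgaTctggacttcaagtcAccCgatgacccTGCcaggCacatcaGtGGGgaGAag

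Eno1 and its copy stand much closer. Eno1b lies at chr18:48045335-48048412 on the plus strand, and its transcript has 2 exons. The coding sequences of Eno1 and Eno1b were 99.4% identical and differed at 8 of 1302 positions, all at the third base of a codon, of which 4 fell in exon 8 of Eno1, at coding positions 726, 747, 750 and 816. In the same stretch, then, Eno1 differs at 24 bases from Eno2 and from Eno3 and at 4 from Eno1b.

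The counts hold only reads that aligned to 1 place, so the sequence of a gene decides how many of its reads could be counted. Of the 1742 windows of 50 bases in the Eno1b transcript, 270 (15.5%) occurred in no transcript of another gene, and 1311 also occurred in Eno1. Of the 1978 windows of Eno1, 550 (27.8%) were its own. Eno2 held 2745 of 2746 windows of its own and Eno3 all 1405. By these windows, countable reads of Eno1 and Eno1b could come from a small part of each transcript, and those of Eno2 and Eno3 from nearly all of it. The annotation lists further processed copies, and the most alike of them, Gm4735 at chr2:80837141-80838442, shared 1150 windows with Eno1b.

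The libraries held 14272174 to 29639719 counts over genes. Levels are given as CPM, counts scaled to a common library depth with the trimmed mean of M values (TMM). Cryaa mRNA stood at 70567 to 104789 CPM in Cryaa-WT and Cryab mRNA at 32412 to 44983 CPM in Cryab-WT, and both knock-in genes stayed transcribed in the mutants, in which a changed codon is not visible in gene counts. One library stood apart from its group: Cryaa-R49C-homo replicate 1 held 100338 CPM of Cryaa mRNA, against 38812 and 31555 CPM in the other 2 homo libraries, and 2.53% of its counts fell to the noncoding gene Gm42418, against 24.5% and 42.6% in those 2. The main enolase and glycolysis differences resting on this library are therefore given with and without it, while correlations include it. The RNA also carried transcripts of tissue next to the lens in changing amounts, with summed photoreceptor markers (7 genes) between 7.57 and 1187 CPM.

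Eno1b, the retrotransposed copy, was scarce outside the Cryab-R120G mutants and higher in both of them. In Cryab-WT lenses Eno1b had 6, 9 and 9 counts, or 0.633, 0.585 and 0.657 CPM in replicates 1 to 3. In Cryab-R120G-het lenses it had 65, 60 and 84 counts, or 5.79, 3.85 and 5.77 CPM. In Cryab-R120G-homo lenses it had 89, 146 and 31 counts, or 5.68, 7.69 and 2.35 CPM. Every library of both mutant groups lay above every Cryab-WT library, which is what chose the gene and is therefore given with no test; 5.16% of the genes with a mean count of at least 10 in either group lay higher without overlap in het and 4.36% in homo lenses. The fitted log2 difference from Cryab-WT was 3.03 (SE 0.43) in het and 3.07 (SE 0.43) in homo lenses, or 8.16-fold and 8.41-fold. The lowest mutant library, Cryab-R120G-homo replicate 3, stood 3.58-fold above the highest Cryab-WT library, and without it the homo difference was 3.41 on the log2 scale.

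**Figure D1:**
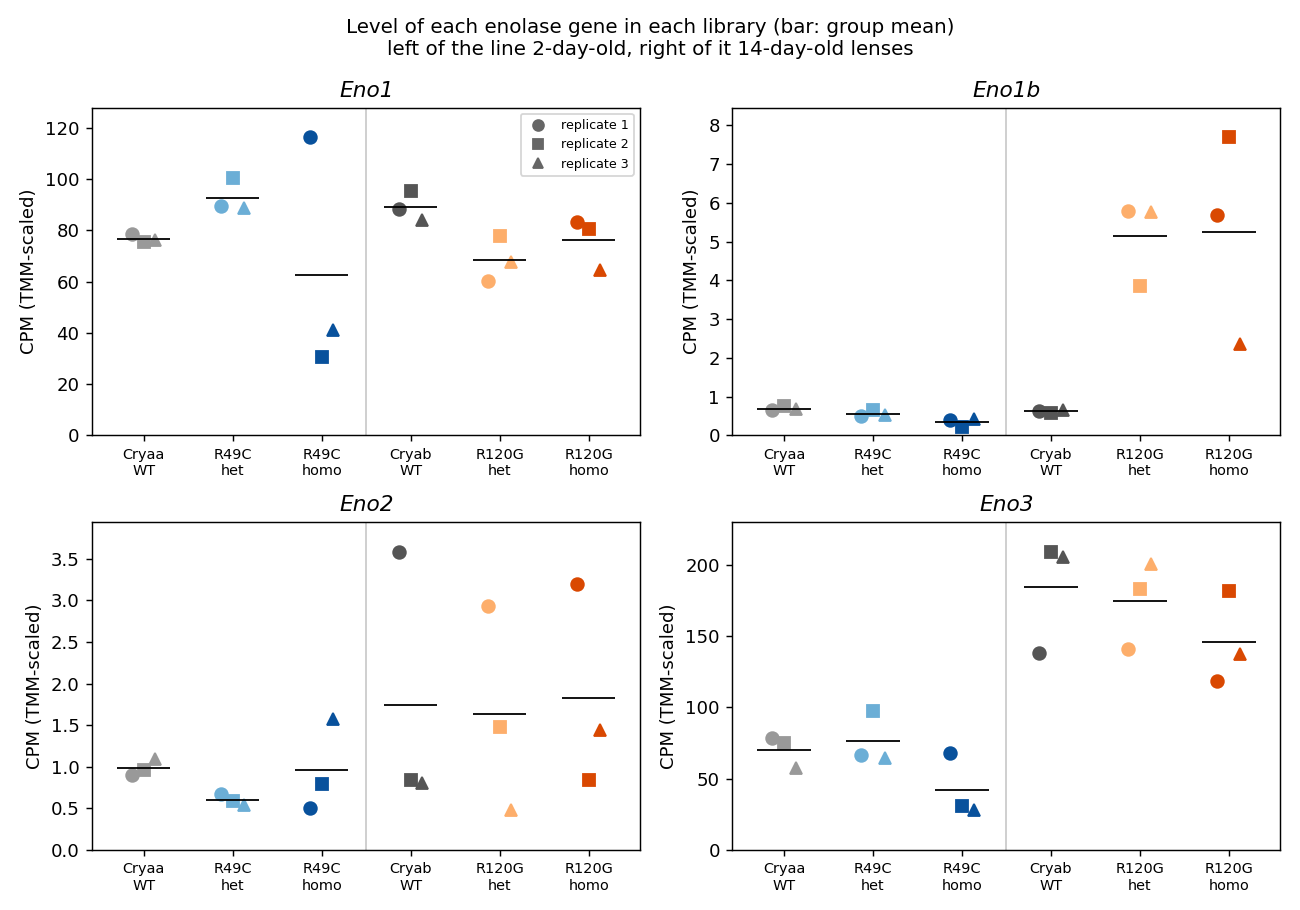
Level of each enolase gene in CPM (TMM-scaled, linear axes from 0) in the 18 libraries, with 3 replicates a group and a bar at the group mean. Eno1b stands at 2.35 to 7.69 CPM in the 6 Cryab-R120G mutant libraries and at 0.223 to 0.754 CPM in the other 12, while Eno3 is higher in the 14-day-old line and Eno2 scatters there.

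Between the 2 mutant genotypes Eno1b differed by 0.04 on the log2 scale (SE 0.35, homo against het), and the libraries overlapped; both groups took part in the choice of the gene, so that no test is given. Eno1, Eno2 and Eno3 were tested with the edgeR quasi-likelihood test and Benjamini-Hochberg adjustment (FDR). In the fit to all genes edgeR gave each gene the spread of the trend over genes of like abundance (infinite prior degrees of freedom), so that its SE and FDR do not follow the gene's own libraries; among genes kept by a filter on low counts the prior degrees of freedom were 0.275 to 10.2. None of these 3 passed an FDR of 0.05, where 0.0565% of all 26547 tested genes did. At an unadjusted p under 0.05 the count was also 0, against 2.59% of all genes, and it was 0 with DESeq2.

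In the Cryaa-R49C line, which the choice of the gene did not use, Eno1b was low in all 9 libraries. The 3 Cryaa-WT libraries held 15, 22 and 19 Eno1b counts (0.643, 0.754 and 0.671 CPM), the Cryaa-R49C-het libraries 18, 20 and 20 (0.503, 0.646 and 0.513 CPM) and the Cryaa-R49C-homo libraries 17, 7 and 11 (0.404, 0.223 and 0.421 CPM). Each homo library lay below each WT and each het library. The log2 difference of homo from WT was −0.97 (SE 0.44), with an unadjusted p of 0.0259 and an FDR of 0.223 in the edgeR quasi-likelihood test, so that it did not pass; without Cryaa-R49C-homo replicate 1 it was −1.11 (FDR 0.112). Libraries that do not overlap in this way were common, since 11.6% of the genes with a mean count of at least 10 in either group lay lower without overlap in homo than in WT lenses, and 9.39% lay lower than in het lenses. Het lenses differed from WT by −0.32 (SE 0.41, FDR 0.911 by edgeR). Ordered by mean level, Cryab-R120G-homo (5.24 CPM ± 2.70, SD, n = 3) and Cryab-R120G-het (5.14 ± 1.11) came first and overlapped, followed by Cryaa-WT (0.690 ± 0.0573), Cryab-WT (0.625 ± 0.0370) and Cryaa-R49C-het (0.554 ± 0.0801), whose neighbours also overlapped, and then by Cryaa-R49C-homo (0.349 ± 0.110).

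Because the copies share most of their sequence, the split of reads between them was taken as a measure of its own. Eno1b held 0.609% to 0.777% of the summed Eno1 and Eno1b counts in Cryab-WT lenses, 4.72% to 8.77% in Cryab-R120G-het and 3.51% to 8.71% in Cryab-R120G-homo. These shares in the Cryab-R120G line rest on the counts that chose the gene and carry no test, and the Wilson intervals plotted with them cover counting error only. In the Cryaa-R49C line the share was 0.891% ± 0.0890 (SD, n = 3) in WT, 0.592% ± 0.0421 in het and 0.695% ± 0.334 in homo lenses. The share in Cryaa-R49C-het lay below WT without overlap, by −0.299 percentage points, with p = 0.1 in a two-sided exact permutation test, the smallest that 3 against 3 libraries can give. The share in Cryaa-R49C-homo differed from WT by −0.196 percentage points (p = 0.5, same exact test), by −0.0212 without Cryaa-R49C-homo replicate 1 and by −0.354 without Cryaa-R49C-homo replicate 3. In Cryaa-R49C-homo replicate 1 the share was 0.346%, the lowest of all 18 libraries, since Eno1 was high there.

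**Figure D2:**
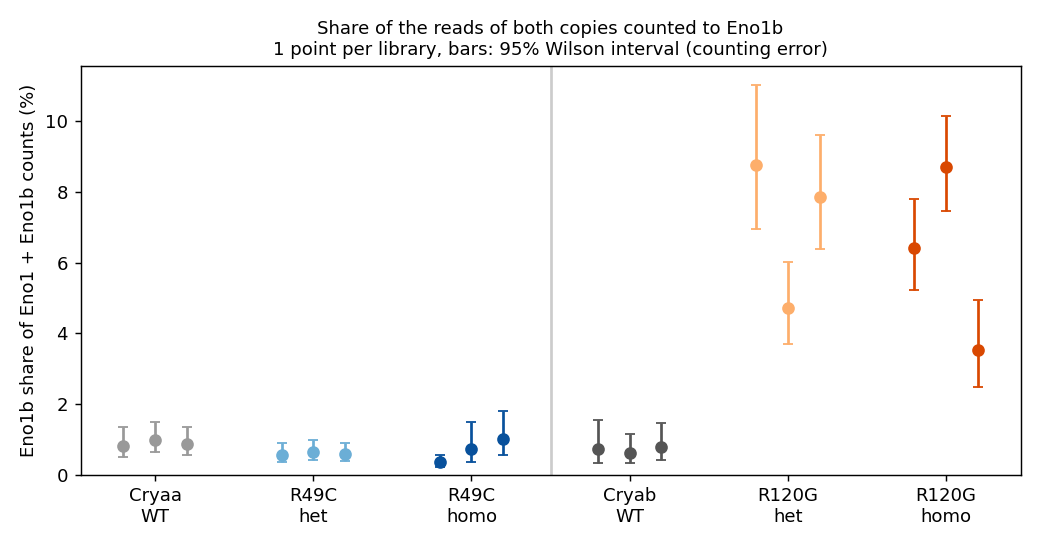
Share of the summed Eno1 and Eno1b counts that fell to Eno1b, in percent, 1 point per library with its 95% Wilson interval. The 12 libraries outside the Cryab-R120G mutants sit at 0.346% to 1.01%, and the 6 mutant libraries at 3.51% to 8.77%.

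Eno1, the source gene and the ubiquitous α-enolase, had lower TMM-scaled levels in the Cryab-R120G mutants, where its copy was high, a direction that turned in homo lenses with scaling by total counts alone (0.15 on the log2 scale). In Cryab-WT lenses Eno1 stood at 88.2, 95.5 and 83.9 CPM, in Cryab-R120G-het at 60.2, 77.8 and 67.7 CPM and in Cryab-R120G-homo at 83.2, 80.6 and 64.6 CPM. All 6 mutant libraries lay below all 3 Cryab-WT libraries, by −0.38 on the log2 scale in het (SE 0.25) and −0.23 in homo lenses (SE 0.25), and neither difference passed (edgeR FDR 1 and 0.98). Of the genes compared in this way, 5.41% lay lower without overlap in het and 4.61% in homo lenses. Summed over both copies, the counts stood at 84.6 to 96.1 CPM in Cryab-WT, 66.0 to 81.6 CPM in het and 67.0 to 88.8 CPM in homo lenses, with log2 differences of −0.28 (SE 0.25) and −0.14 (SE 0.25). With each count divided by the authors' gene length, the share of Eno1b was 1.84% to 2.34% in Cryab-WT and 10.02% to 22.7% in the 6 mutant libraries.

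In the Cryaa-R49C line 1 homozygous library set the Eno1 values apart. It stood at 78.5, 75.5 and 76.3 CPM in Cryaa-WT and at 89.3, 100.4 and 88.6 CPM in Cryaa-R49C-het, where all 3 libraries lay above WT. The difference of 0.27 on the log2 scale (SE 0.25) had an FDR of 0.887 by edgeR, and 11.4% of genes lay higher without overlap in that comparison. In Cryaa-R49C-homo Eno1 stood at 116.3, 30.4 and 41.2 CPM, so that replicate 1 lay above every other library of the series and replicates 2 and 3 below every one. With all 3 libraries the difference from WT was −0.29 (SE 0.25, FDR 0.67, edgeR quasi-likelihood test), whereas Eno1 passed in the likelihood-ratio test. The share of counts on Gm42418 was lowest in replicate 1 (2.53%), where Eno1 was highest. Replicate 3 held more of it (42.6%) than replicate 2 (24.5%) and also more Eno1. This share stood at 20.0% to 30.1% in Cryaa-WT, a range that holds the value of replicate 2, and at 11.9% to 17.97% in Cryaa-R49C-het. The part of Gm42418 in the Eno1 and Eno3 values was not tested. Without replicate 1 the Eno1 difference was −1.10, with an FDR of 3.33e-06 by the same test on the 2 remaining homo libraries and 0.000139 with low-count genes also removed.

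Eno3, the β-enolase of muscle, gave the enolase reads that changed most between the wild-type groups. Eno3 stood at 78.8, 74.8 and 57.1 CPM in 2-day-old Cryaa-WT lenses and at 138.4, 209.3 and 205.7 CPM in 14-day-old Cryab-WT lenses, and the groups did not overlap, as for 19.3% of genes that lay higher. The difference was 1.39 on the log2 scale (SE 0.26), or 2.63-fold, with an FDR of 2.82e-06 in the edgeR quasi-likelihood test, and an FDR of 0.00109 when low-count genes were removed. Eno3 was the only one of the 3 enolase genes tested here that passed, in a comparison in which 12.7% of all genes passed and 5.67% passed as higher. This difference rests on the TMM scaling, under which the median gene stood at −0.04. When libraries were scaled by their total counts alone, the median of all genes moved to −1.52, Eno3 stood at −0.07 and lost its call (FDR 0.955), and the gene that passed was Eno1, at −1.29 (edgeR FDR 3.25e-05). The ratio of Eno3 to Eno1 per kilobase of the authors' gene length, which no scaling of libraries changes, was 2.32 to 3.10 in Cryaa-WT and 4.86 to 7.58 in Cryab-WT. Eno1 was 0.22 higher in Cryab-WT (SE 0.25, FDR 0.719 by edgeR) and Eno2 0.75 higher (SE 0.45, FDR 0.344), and Eno1b, given with no test, was −0.15, or −1.61 with scaling by total counts alone.

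RNA of skeletal muscle, where Eno3 is abundant, was not higher in Cryab-WT. The 7 muscle markers summed to 2.40 to 21.0 CPM in Cryaa-WT and to 2.04 to 2.85 CPM in Cryab-WT. The 21.0 CPM came from Cryaa-WT replicate 3, with 2.53 and 2.40 CPM in replicates 1 and 2. At an FDR of 0.05 by edgeR 3 of the 7 were lower and 0 higher, where 7.07% of all genes were lower. With low-count genes removed 0 passed. Myh4, a fast muscle myosin, had 0 counts in all 3 Cryaa-WT libraries and 0, 1 and 0 counts in Cryab-WT. The part of muscle RNA in the Eno3 values was not tested.

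Eno3 was lower in homozygous than in heterozygous Cryaa-R49C lenses. It stood at 66.4, 97.3 and 64.5 CPM in Cryaa-R49C-het and at 68.2, 30.7 and 27.8 CPM in Cryaa-R49C-homo, where replicate 1 again lay apart from the other 2. The difference of homo from het was −0.85 on the log2 scale (SE 0.26) and passed with an FDR of 0.0229 by edgeR, 1 of 4 enolase genes against 5.35% of all genes, of which 2.46% were lower. It did not pass with low-count genes removed (FDR 0.0612), and the libraries overlapped. Leaving out Cryaa-R49C-homo replicate 1 gave −1.38 (FDR 1.62e-09 by edgeR), whereas the call was lost without Cryaa-R49C-homo replicate 2 (−0.66, FDR 0.276), without Cryaa-R49C-homo replicate 3 (−0.62, FDR 0.279) and without Cryaa-R49C-het replicate 2 (−0.63, FDR 0.268). Eno1 differed between homo and het by −0.57 (SE 0.25, FDR 0.228 by edgeR), by −1.37 without Cryaa-R49C-homo replicate 1 (FDR 2.51e-09), by −0.24 without Cryaa-R49C-homo replicate 2 (FDR 0.844) and by −0.34 without Cryaa-R49C-homo replicate 3 (FDR 0.726). Eno1b differed by −0.65 (SE 0.43, FDR 0.526) and Eno2 by 0.64 (SE 0.44, FDR 0.546), or by −0.79 (FDR 0.308) and 0.97 (FDR 0.137) without Cryaa-R49C-homo replicate 1. Some markers of muscle and of lens fibres were lower in the same comparison. Of the 7 muscle markers 2 were lower by edgeR, Acta1 at −1.81 (FDR 0.00209) and Tnnt3 at −2.56 (FDR 0.00308), and 0 with low-count genes removed. Mylpf (0.77, edgeR FDR 0.309) and Actn3 (0.61, edgeR FDR 0.603) lay higher in homo lenses without overlap, as 13.6% of genes did, and did not pass. The 7 markers summed to 2.13 to 8.63 CPM in het and 3.57 to 4.66 CPM in homo lenses, which overlapped. Of 7 fibre genes 2 were lower, the beaded filament genes Bfsp1 at −1.53 (FDR 7.14e-06) and Bfsp2 at −1.59 (FDR 1.04e-05), and Bfsp1 alone with low-count genes removed. Against Cryaa-WT 4 of 7 muscle markers and the same 2 fibre genes were lower in homo lenses by edgeR, as were 2.81% of all genes. With low-count genes removed 0 muscle markers passed. Among the fibre genes Bfsp2 then lost its call (FDR 0.131), while Bfsp1 kept it and Crygc gained one (FDR 0.0266). Actn3 lay higher than Cryaa-WT without overlap (0.95) and did not pass. The part of muscle and of fibre RNA in the Eno3 values was not tested.

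Against Cryaa-WT, Eno3 in Cryaa-R49C-homo differed by −0.73 (SE 0.26), with an unadjusted p of 0.00419 and an FDR of 0.0672 by edgeR. None of the 4 enolase genes passed this comparison, in which 5.64% of all genes did, and with DESeq2 the count was also 0, while Eno1b and Eno3 had an unadjusted p under 0.05, as did 15.4% of all genes. Without Cryaa-R49C-homo replicate 1 the Eno3 difference was −1.26 with an FDR of 4.6e-08, and without Cryaa-WT replicate 3 it was −0.86 with an FDR of 0.0469 (edgeR, both). Het lenses did not differ from WT in Eno3 beyond the spread (0.12, SE 0.25, FDR 1), and none of the 4 genes passed, against 0.064% of all genes; the count was 0 with DESeq2 and at an unadjusted p under 0.05, which 4.14% of all genes met.

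In the Cryab-R120G line Eno3 stood at 141.3, 183.2 and 200.4 CPM in het and 118.9, 181.8 and 137.7 CPM in homo lenses, overlapping Cryab-WT in both. The log2 differences from Cryab-WT were −0.08 (SE 0.25, edgeR FDR 1) and −0.34 (SE 0.25, edgeR FDR 0.98). With Eno1 and Eno2, 0 of 3 tested enolase genes passed in het, where 0.527% of all genes passed, and 0 of 3 in homo lenses, where 1.14% passed; by an unadjusted p under 0.05 both counts were also 0, against 3.96% and 5.96% of all genes, and with DESeq2 both were 0. Whether the homozygous knock-in acted differently in the 2 lines was tested by an interaction term, which was 0.07 for Eno1, 0.20 for Eno2 and 0.40 for Eno3 on the log2 scale (edgeR FDR 1, 1 and 0.862). Of the 3 genes 0 passed, also with DESeq2 and at an unadjusted p under 0.05, against 3.01% of all genes past the threshold. Without Cryaa-R49C-homo replicate 1 the term was 0.87 for Eno1 (FDR 0.0201) and 0.93 for Eno3 (FDR 0.0105).

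Eno2, the γ-enolase of neurons, had few reads, with 7 to 50 counts in each of the 18 libraries. In the Cryab-R120G line it stood at 3.59, 0.844 and 0.803 CPM in WT, 2.94, 1.48 and 0.481 CPM in het and 3.19, 0.843 and 1.44 CPM in homo lenses. Replicate 1 was the highest of each of these groups. The 7 markers of inner retina and neurons were also highest in replicate 1 of each group, at 53.6, 55.7 and 111.8 CPM, against 2.66 to 51.5 CPM in the other 6 libraries; their part in the Eno2 values was not tested. Within the Cryaa-R49C line Eno2 stood at 0.901 to 1.10 CPM in WT, 0.539 to 0.670 CPM in het and 0.499 to 1.57 CPM in homo lenses. The het libraries lay below WT without overlap, by −0.72 (SE 0.44, FDR 0.887 by edgeR), as 11.5% of genes did.

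Which enolase was the most abundant depended on the length used. Per kilobase of the gene length that the authors used (5.379 kb for Eno1 and 1.739 kb for Eno3), Eno3 was highest, at 40.4 ± 6.63 CPM per kb (SD, n = 3) against 14.3 ± 0.285 for Eno1 in Cryaa-WT, and at 106.1 ± 22.9 against 16.6 ± 1.09 in Cryab-WT. Per kilobase of windows found in that gene alone, a length chosen after the data were seen, Eno1 was higher in Cryaa-WT, at 139.6 ± 2.79 against 50.0 ± 8.20 for Eno3, and also in each Cryab-WT library, at 162.1 ± 10.6 and 131.3 ± 28.4. Eno1b and Eno2 were the lowest on both scales in Cryaa-WT, with Eno1b at 0.392 and Eno2 at 0.209 CPM per kb of the authors' length.

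**Figure D3:**
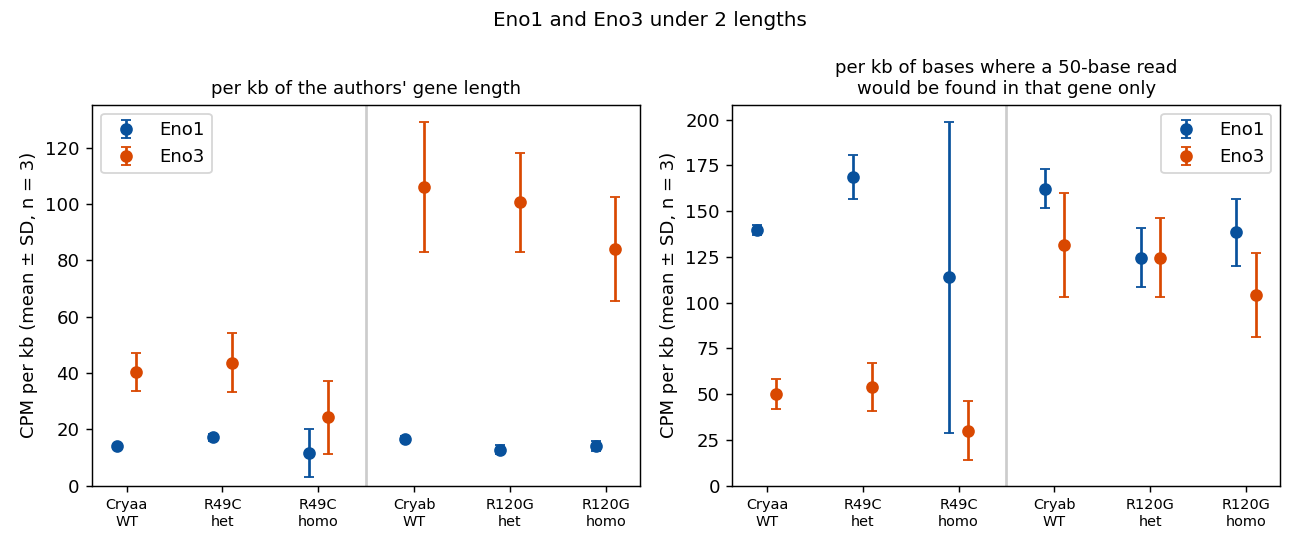
Levels of Eno1 and Eno3 as CPM per kb (mean ± SD, n = 3 libraries) under 2 lengths, with linear axes from 0 that differ between the panels. Eno3 lies above Eno1 per kb of the authors' gene length in all 6 groups, and per kb of windows that only the gene holds the mean of Eno1 lies above that of Eno3 in all 6, narrowly in Cryab-R120G-het (124.6 and 124.5 CPM per kb).

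RNA of other tissue was also higher in the Cryab-R120G mutants. The 6 markers of pigment and ciliary epithelium, Rgr, Ttr, Dct, Pmel, Rpe65 and Tyr, summed to 5.17 to 7.08 CPM in Cryab-WT, 17.7 to 54.2 CPM in Cryab-R120G-het and 16.3 to 30.0 CPM in Cryab-R120G-homo. Of the 6, 4 were higher in het and 4 in homo lenses at an edgeR FDR of 0.05, against 0.23% and 0.765% of all genes, and 0 were with low-count genes removed; Tyr, the tyrosinase of melanin synthesis, had 0 counts in all 3 Cryab-WT libraries. Cryaa-WT held 15.0 to 30.3 CPM of these markers, with Eno1b at 0.643 to 0.754 CPM, and its sum overlapped that of the mutants through Pmel (9.14 to 16.5 CPM against 2.27 to 8.10 CPM in the 6 mutant libraries) and Dct (3.95 to 7.84 against 2.33 to 9.97 CPM), both melanosome genes. Tyr also overlapped, at 0.472 to 0.707 CPM in Cryaa-WT and 0.0687 to 0.534 CPM in the mutants. Rgr, Ttr and Rpe65 did not overlap, in a comparison across line and age for which the share of all genes was not counted. Between the 2 wild types 45% of the genes with a mean count of at least 10 in either group did not overlap, in either direction. Rpe65 had only 0 to 2 counts in Cryaa-WT. Rgr stood at 0.172 to 0.919 CPM in Cryaa-WT and 2.33 to 8.37 CPM in the mutants, Ttr at 1.24 to 4.24 and 7.81 to 25.1 CPM, and Rpe65 at 0 to 0.0707 and 0.607 to 2.14 CPM. The 5 erythrocyte markers were also higher in het lenses, 5 of 5 at an FDR of 0.05 by edgeR, and in homo lenses 2 of 5 were, beside the same shares of all genes, while 0 passed in either with low-count genes removed. Photoreceptor markers were higher in 1 of 7 in het (Crx) and 7 of 7 in homo lenses, and inner retina and neuron markers in 1 of 7 in het (Nefl) and 4 of 7 in homo lenses, by edgeR. Their sums ranged widely within groups, at 21.4 to 774.2 CPM in Cryab-WT, 96.1 to 609.8 CPM in het and 203.5 to 1187 CPM in homo lenses for photoreceptors and at 2.66 to 53.6, 10.7 to 55.7 and 22.5 to 111.8 CPM for inner retina. Of the 7 muscle markers 2 were higher in het (Acta1 and Tnnt3) and 0 in homo lenses. With low-count genes removed, 0 markers of these 3 lists passed in either. The part of these tissues in the Eno1b values was not tested. In bulk lenses more cells of a type and more RNA per cell cannot be told apart.

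**Figure D4:**
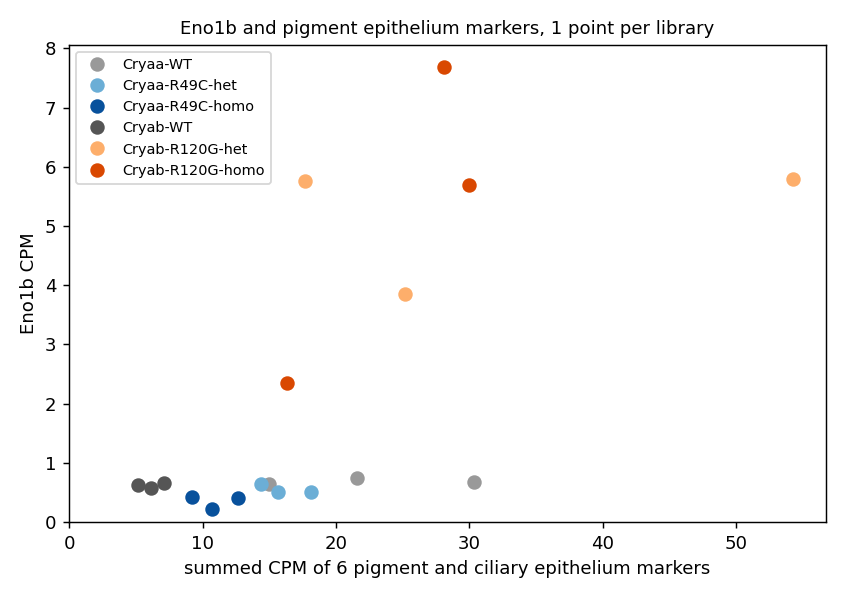
Eno1b level in CPM against the summed CPM of 6 pigment and ciliary epithelium markers, 1 point per library and linear axes from 0. The Cryaa-WT libraries reach 30.3 CPM of markers at 0.671 CPM of Eno1b, with Pmel as the largest single marker in that group, while the Cryab-R120G mutants lie at 16.3 to 54.2 CPM of markers and 2.35 to 7.69 CPM of Eno1b.

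The genes whose log2 levels ran most closely with Eno1b over the 18 libraries were Rpe65 (Pearson r = 0.91), Gm11942 (0.90), Rgr (0.88), Lrat (0.88) and Slc37a4 (0.87). Rpe65, Rgr and Lrat act in the retinoid cycle of the pigment epithelium and its neighbours, and Slc37a4 carries glucose-6-phosphate. These values describe the 18 libraries, which differ in line, age, depth and neighbouring tissue. They include the rise that chose Eno1b and carry no test. Rpe65 had 0 to 6 counts in Cryab-WT, 11 to 24 in het and 8 to 25 in homo lenses. Gm11942, a processed pseudogene at chr4:32964888-32965232, had 2 to 4 counts in Cryab-WT and 287 to 991 in homo lenses, but 286, 6 and 305 in het lenses, where replicate 2 stayed low while holding 60 Eno1b counts.

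Within the 9 libraries of the Cryab-R120G line the closest to Eno1b were Gm13830 (r = 0.94), Ift46 (0.93), Rgr (0.93), Ttr (0.93) and Gm13443 (0.92). These are the libraries whose difference chose Eno1b, so that a gene higher in the mutants ranks high here, and no test is given. Ift46, an intraflagellar transport gene at chr9:44767908-44793447, and Slc37a4 at chr9:44396852-44402968 lie on the same chromosome as Cryab at chr9:50751325-50756636, while Eno1b does not. Ift46 had 77 to 153 counts in Cryab-WT and 151 to 264 in the 6 mutant libraries. Over the 18 libraries Eno1 ran most closely with Pkm (r = 0.93), which encodes the pyruvate kinase of the next step, and with Urod and Map1lc3b (both 0.92). These genes share the split of the Cryaa-R49C-homo group. In replicates 1 to 3 Pkm stood at 245.9, 76.8 and 79.4 CPM, Urod at 17.4, 3.89 and 4.51 CPM and Map1lc3b at 67.2, 15.6 and 16.6 CPM. No correlation was taken without replicate 1. Eno3 ran most closely with Hebp2, Cox14 and Dtna (each 0.99), and Eno2 with Fyco1 (0.89), Cds1 (0.88) and Arl4d (0.87). Among the enolases themselves, Eno1 and Eno1b had r = 0.64 over the 9 Cryaa-R49C libraries and −0.60 over the 9 Cryab-R120G libraries, and Eno1 and Eno3 had r = 0.89 and 0.27.

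The remaining glycolysis and lactate genes, a list of 24, had few calls in the comparisons in which Eno1b was high. In Cryab-R120G-het 0 of 24 passed by edgeR, with 1 at an unadjusted p under 0.05 and 0 by DESeq2, against 0.527% of all genes past the FDR and 3.96% past the unadjusted p. In Cryab-R120G-homo 1 was higher and 0 lower, where 1.14% of all genes passed, while 4 of 24 had an unadjusted p under 0.05, against 5.96% of all genes, and DESeq2 called 0, with medians of 0.01 in het and 0.07 in homo lenses on the log2 scale for the list and 0 for all tested genes. The gene that passed was Ldhb, a lactate dehydrogenase subunit, at 1.59 (SE 0.32, FDR 0.000139 by edgeR but 0.722 with low-count genes removed). Homo and het lenses of that line differed in 0 of 24 genes by edgeR, with 2 at an unadjusted p under 0.05 and 0 by DESeq2, against 0.0565% of all genes.

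Between the wild types and in homozygous Cryaa-R49C lenses, several genes of the list passed. Pgam2, the muscle type of phosphoglycerate mutase, which makes the substrate of enolase, stood at 205.8 to 334.9 CPM in Cryaa-WT and 913.7 to 1112.5 CPM in Cryab-WT, higher by 1.80 (SE 0.27, FDR 2.93e-09 by edgeR). In Cryaa-R49C-homo it stood at 43.1 to 95.8 CPM, lower than WT by −2.13 (SE 0.28, FDR 4.94e-12), without overlap. From Cryaa-WT to Cryab-WT 5 of the 24 genes were higher and 1 lower, against 12.7% of all genes called, among them Aldoc, an aldolase, at 2.00 (SE 0.27, FDR 4.82e-12 by edgeR), and Ldhb at −2.55 (SE 0.31, FDR 4.54e-14). As for Eno3, the values between the wild types, Pgam2 included, rest on the TMM scaling. With scaling by total counts alone the median of all genes moved to −1.52. Of the genes called, 1.67% were then higher, against 44.5% with TMM. In Cryaa-R49C-homo 2 were higher and 4 lower than in WT, against 5.64% of all genes. By the size of the log2 difference, Pgam2 was followed by Slc16a3, a lactate exporter, at 1.13 (SE 0.29, FDR 0.00367), Slc16a1 at −1.07 (SE 0.33, FDR 0.0249) and Aldoc at −0.92 (SE 0.26, FDR 0.0106), all by edgeR. Without Cryaa-R49C-homo replicate 1 these counts were 2 higher and 5 lower, where 11.9% of all genes passed, with Pgam2 at −2.51, Slc16a3 at 0.77 and Slc16a1 at −1.41. Pgk1 (FDR 0.122) and Ldhb (FDR 0.246) then lost their calls, and Hk2 (FDR 0.00581), Pkm (FDR 6.77e-07) and Gapdh (FDR 2.54e-07) gained them, all by edgeR. Cryaa-R49C-homo against het gave 0 higher and 4 lower, against 5.35% of all genes, with Pgam2 at −2.02 (SE 0.28, FDR 7.46e-11 by edgeR). Of these 4, 2 passed with low-count genes removed, DESeq2 called 2 of the list, and Gapdh, the glyceraldehyde-3-phosphate dehydrogenase, and Ldhb lost their calls under that filter (edgeR FDR 0.00497 to 0.15 and 0.000478 to 0.168). Without Cryaa-R49C-homo replicate 1, 1 was higher and 7 lower than in het, among them Pkm at −1.39 (FDR 8.13e-10 by edgeR), Pgam2 at −2.41 and Gapdh at −1.82, while Ldhb at −1.78 did not pass (FDR 0.0969), and 15.6% of all genes passed. Cryaa-R49C-het against WT gave 0 of 24, against 0.064% of all genes, with 2 at an unadjusted p under 0.05 and 0 by DESeq2.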

How the data were processed

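Single 50-base reads were, by the study's methods and the submitters' processing notes, aligned to GRCm38 with STAR 2.0.4b, and uniquely aligned, unambiguous reads were counted per gene with featureCounts 1.4.5; the strand setting is not given in the sources used here. The deposited counts are the authors' raw read counts per gene. The CPM and RPKM values deposited beside them served only to recover the authors' gene lengths. The count table had 41422 lines for 40800 Ensembl genes, since some genes, Eno1b among them, had 2 Entrez numbers, and 1 line per gene was kept. Groups were taken from sample titles, because the genotype label of the Cryab mutant libraries names the mutation of the other line. By the study's methods each library is a biological replicate made from a separate pool of lenses.

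Genes with at least 1 count (26547) were fitted in edgeR 4.0.16 (R 4.3.3) with TMM scaling, 6 group means and a robust quasi-likelihood test, as were the 13938 genes kept by filterByExpr. Prior degrees of freedom were infinite in the first fit, so its p-values use the trend of dispersion over abundance and not a gene's own spread, and were 0.275 to 10.2 in the second. Benjamini-Hochberg adjustment ran over all genes of a comparison, with a threshold of 0.05. Comparisons with the same wild-type libraries share their error. Correlations were taken on log2 CPM (2 added as prior count) among filterByExpr genes, and the top 5 (Eno1b) or top 3 were named. Glycolysis genes past the threshold were named up to 5 a comparison. Alternatives included DESeq2 1.42.0. Same-numbered libraries deviated together with r over 0.1 in all 3 pairs of Cryab-WT and Cryab-R120G-homo (r = 0.28, 0.18 and 0.16) and in no other pair of groups in all 3. Windows of 50 bases were compared across 141767 annotated transcripts of GENCODE vM21 (GRCm38). The members and lists were chosen with earlier results of these data known.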

Additional observations from a re-analysis of the deposited data

Results flagged for a closer look

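Eno1 values in the heterozygotes of the 2 lines lay on opposite sides of their wild types, and neither difference passed. All 3 Cryaa-R49C-het libraries lay above Cryaa-WT (log2 difference 0.27) and all 3 Cryab-R120G-het libraries lay below Cryab-WT (−0.38). The difference between the 2 effects, tested by an interaction term added after the data were seen, was −0.65 (SE 0.36), with an unadjusted p of 0.0691 and an FDR of 1 in the edgeR quasi-likelihood test.

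Eno1b values in the homozygotes also lay on opposite sides. All 3 Cryaa-R49C-homo libraries lay below Cryaa-WT (−0.97, FDR 0.223 by edgeR, not passed), as 11.6% of genes did, and all 3 Cryab-R120G-homo libraries lay above Cryab-WT (3.07). The difference was not tested, since the second value chose the gene.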

How the results depend on the processing

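Of 464 single-gene values under alternative settings, 406 kept their direction and side of the threshold or, where untested, moved by less than 1 SD. Against Cryab-WT, Eno1b stayed between 2.69 and 3.44 in both Cryab-R120G mutants. Counts of 6 to 146 for Eno1b and 7 to 50 for Eno2 limit what could be detected. In Cryaa-R49C-homo against het the count of enolase genes past the threshold was 0 with genes kept by filterByExpr (a filter on low counts), with library size alone and with only the groups compared, and 2 (Eno1, Eno3) with the likelihood-ratio test. Against WT it was 1 (Eno3) with DESeq2 size factors and 2 (Eno1, Eno3) with the likelihood-ratio test. Leaving out 1 library gave 0 to 2 in both, and 0 to 2 in the interaction, and Eno1b shares from −0.354 to −0.0212 percentage points in Cryaa-R49C-homo and −0.338 to −0.251 in Cryaa-R49C-het against WT. The cause was not tested.

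The replicate block gave 1 (Eno3) in Cryaa-R49C-homo against WT and 2 (Eno1, Eno3) against het, with Eno2 at 0.0093 in Cryab-R120G-het and Eno1b at −0.0347 in homo against het, and changed no other call; apart from Cryab-WT and Cryab-R120G-homo, where 6 of 6 libraries correlated best with their own number, 1 to 5 of 6 did so and the libraries share only a number.

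Library size alone moved the median of all genes to 0.12 in Cryaa-R49C-het, 0.25 in Cryaa-R49C-homo, 0.11 between these 2, 0.25 in Cryab-R120G-homo and −1.52 in Cryab-WT against Cryaa-WT. Direction turned for Eno1 (0.12) and Eno2 (0.24) in Cryaa-R49C-homo, Eno2 (0.15) and Eno3 (0.10) in Cryab-R120G-het, Eno1 (0.15) and Eno3 (0.0097) in Cryab-R120G-homo, and Eno1 (−1.29), Eno2 (−0.74) and Eno3 (−0.0677) in Cryab-WT, where the call passed from Eno3 to Eno1. The likelihood-ratio test gave Eno2 0.30 in Cryab-R120G-het. Of the genes called in Cryab-WT against Cryaa-WT, 44.5% were higher with TMM and 1.67% with library size; in Cryaa-R49C-homo against het the shares were 54.1% and 72.7%.

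Leaving out 1 library gave Eno1 −1.10 to 0.0370 in Cryaa-R49C-homo and −0.26 to 0.87 in the interaction, Eno1b −0.34 to 0.39 in Cryab-R120G-homo against het, and Eno3 −0.10 to 0.22 in Cryaa-R49C-het and −0.25 to 0.0560 in Cryab-R120G-het. Eno2 ranged from −0.62 to 0.25 in Cryaa-R49C-homo, −0.76 to 0.95 in Cryab-R120G-het, −0.57 to 1.13 in Cryab-R120G-homo, −0.51 to 0.88 between those 2, −0.26 to 1.10 in Cryab-WT against Cryaa-WT and −0.49 to 1.21 in the interaction.

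Over all genes, counts past the threshold moved by over 1.5 times from 17 to 1 (filterByExpr) or 260 (groups compared only) in Cryaa-R49C-het, from 1498 and 1419 to 2678 and 2844 (likelihood-ratio test) in Cryaa-R49C-homo against WT and het, from 140, 302 and 15 to 1, 7 and 0 (filterByExpr) in Cryab-R120G-het, homo and homo against het, from 3381 to 12303 (library size) between the WT groups, and from 798 to 406 (filterByExpr) or 1249 (likelihood-ratio test) in the interaction.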

Other observations

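The relatives named or annotated as enolases had the following counts, with no test. Enoph1, which encodes enolase-phosphatase of the methionine salvage pathway and no glycolytic enolase, had 62 to 345 counts and stood at 7.17 to 8.51 CPM in Cryab-WT, 5.52 to 8.10 CPM in Cryab-R120G-het and 8.42 to 10.4 CPM in Cryab-R120G-homo. Eno4 had 0 to 17 counts in the 18 libraries. Gm4735, the processed copy that shares most windows with Eno1b after Eno1, had 0 to 3.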
